A study of Homo sapiens with 2 samples.

Results

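The kinetochore is the protein assembly that builds on the centromere of each chromosome and holds it to the microtubules of the mitotic spindle. Its inner layer, the constitutive centromere associated network (CCAN), sits on chromatin that carries the histone variant CENP-A. Its outer layer, the KMN network of the KNL1, MIS12 and NDC80 complexes, binds microtubules and calls the spindle checkpoint proteins when attachment is missing. FZR1, also called CDH1, activates the anaphase promoting complex, a ubiquitin ligase that clears mitotic proteins as cells leave mitosis and pass through G1. It acts on proteins, and the values given here are mRNA.

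The genes described are 34 named kinetochore and centromere genes, found in the deposited expression table by their Entrez gene IDs out of 23033 genes with a value. They comprise CENPB, 14 CCAN subunits, the 10 subunits of the KMN network, the 3 subunits of the RZZ complex, the corona proteins CENPE and CENPF, the CENP-A loading factors MIS18A, OIP5 and HJURP, and INCENP of the chromosomal passenger complex. The level of a gene is its FPKM, the number of sequenced fragments scaled to the length of the transcript and to the number of mapped fragments. Differences are log2 ratios of FPKM + 1, FZR1 ko over control, a scale on which the added 1 pulls low genes towards 0. A gene was kept when it had at least 1 FPKM in at least 1 library, which held for 33 of the 34 genes and 13554 genes in all. CENPP was the exception.

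The values come from 2 RNA-seq libraries of breast cancer cells labelled T-47D, 1 of control cells (genotype WT) and 1 of FZR1 ko cells. Both cultures received 2 µg/mL of cisplatin, a drug that crosslinks DNA. The FZR1 ko line was made with CRISPR/Cas9 and grown from a single cell, so it is 1 clone. Each condition has 1 library, so no difference has a replicate check, no test was made, and the values compare these libraries and not the conditions. Neither the length of the treatment nor untreated cells entered the comparison. FPKM holds no read numbers, so the depth behind a value is unknown. FZR1 itself had 12.3 FPKM in control against 10.1 FPKM in FZR1 ko (log2 ratio -0.26). A small deletion can leave mRNA in place, so this does not check the genotype. Most luminal breast markers did not bear out the labelled line, and the mesenchymal marker VIM was high. Of 9 luminal breast markers 4 reached 1 FPKM, with a summed level of 1398 FPKM in control against 1752 FPKM in FZR1 ko. The keratins KRT8 (829 and 998 FPKM) and KRT18 (552 and 740 FPKM) held most of it. FOXA1 (5.07 and 4.65 FPKM) and TFF1 (9.80 and 7.52 FPKM) were present at lower levels and were lower in FZR1 ko. The defining luminal genes ESR1 (0.04 and 0.13 FPKM), PGR (0.01 FPKM and listed at 0) and GATA3 (0.31 and 0.15 FPKM) were close to 0. The rest of the luminal list was below 1 FPKM in both libraries too. Of 9 mesenchymal and basal markers 6 reached 1 FPKM, with a summed level of 350.1 FPKM against 362.2 FPKM, most of it VIM (315 and 295 FPKM), and SPARC, KRT5 and KRT14 were below 0.2 FPKM in both libraries. In that list CDH2 (2.97 and 15.3 FPKM, log2 ratio 2.04) and AXL (16.02 and 37.8 FPKM, 1.19) were more than 2-fold higher in FZR1 ko, and ZEB1 (2.82 and 4.45 FPKM, 0.51) was higher too, while SNAI2 (7.05 and 3.86 FPKM, -0.73), FN1 (6.33 and 5.88 FPKM, -0.09) and VIM were lower. The part of these marker differences in the values that follow was not tested.

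The promoters of these genes shared short sequence elements that the choice of genes did not use. RefSeq promoter windows of the GRCh38.p14 build, running from 250 bases before the transcript start to 50 after it, matched 28 of the 34 genes, with 32 windows. CENPH, CENPM, CENPL, KNL1, KNTC1 and MIS18A had no window. Cell cycle genes often carry a cell cycle homology region (CHR), searched as TTTGAA or TTCGAA on both strands, and CCAAT boxes, searched as CCAAT on both strands. The CHR letters were present in 14 of the 32 windows (43.8%) against 16.4% of all 35116 windows and 11.6% of the windows of genes kept. CCAAT was present in 21 windows (65.6%) against 34.6% of all windows and 35.3% of those of genes kept. The letters TTTCCCGC, TTTGGCGC, TTTCGCGC or TTTGCCGC, which resemble E2F sites, were present in 4 windows (12.5%) against 3.31% of all windows and 5.05% of those of genes kept. Sites of different elements can overlap at their ends. A match describes the letters and is not a measured binding site.

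The upstream sequences below are shown because they carry the shared elements in genes with different values. CENPC, ZWINT and HJURP have both CHR and CCAAT letters, while CENPQ, with a low ratio, and SPC24, with a high ratio, have CCAAT only in the stretch shown. Each stretch holds bases before the start and no annotated exon, is written 5′ to 3′ on the strand of the gene, and has CHR letters (TTTGAA, or TTCAAA on the other strand) and CCAAT letters (or ATTGG) in capitals.
CENPC promoter, chr4:67545504-67545653, minus strand: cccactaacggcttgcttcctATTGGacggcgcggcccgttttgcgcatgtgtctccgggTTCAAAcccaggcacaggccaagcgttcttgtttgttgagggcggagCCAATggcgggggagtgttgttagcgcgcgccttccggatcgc
ZWINT promoter, chr10:56361274-56361423, minus strand: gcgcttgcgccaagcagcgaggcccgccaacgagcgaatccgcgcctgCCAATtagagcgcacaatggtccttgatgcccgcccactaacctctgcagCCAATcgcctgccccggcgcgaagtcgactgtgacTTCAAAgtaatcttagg
HJURP promoter, chr2:233854567-233854685, minus strand: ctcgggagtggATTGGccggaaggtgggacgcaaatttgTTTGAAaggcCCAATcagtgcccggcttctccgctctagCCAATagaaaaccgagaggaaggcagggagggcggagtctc
CENPQ promoter, chr6:49463254-49463369, plus strand: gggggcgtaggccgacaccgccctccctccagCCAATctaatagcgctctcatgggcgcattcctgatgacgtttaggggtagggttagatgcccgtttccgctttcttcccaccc
SPC24 promoter, chr19:11155808-11155932, minus strand: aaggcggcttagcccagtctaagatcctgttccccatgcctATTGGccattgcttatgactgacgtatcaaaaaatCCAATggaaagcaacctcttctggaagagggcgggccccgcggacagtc

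The kinetochore and centromere genes did not differ together between control and FZR1 ko. Their median log2 ratio was -0.049 over the 33 genes kept, beside -0.0048 over all genes kept, and the middle of the distribution ran from -0.43 (25th percentile) to 0.21 (75th percentile). The higher FPKM was in FZR1 ko for 15 of them, beside 49.6% of all genes kept, and in control for 18. At least 2-fold differences were found in 2 of the 33 genes (6.06%), CENPT lower and ZWILCH higher in FZR1 ko, beside a background of 13.5% of all genes kept. Counted by direction, 1 gene was at least 2-fold lower against 6.72% of genes kept, and 1 was at least 2-fold higher against 6.79%. Among genes that reached 10 FPKM in either library, a filter chosen after the values were seen, 2 of 29 of these genes (6.90%) were past 2-fold against 11.5% of all. At a 1.5-fold threshold 11 of 33 genes differed (33.3%) against a background of 35.7%, with 5 lower (background 17.6%) and 6 higher (background 18.0%). The share past 1.5-fold was therefore near that of all genes. In bulk RNA, fewer mitotic cells and less of an mRNA in each cell cannot be told apart.

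Levels spanned a wide range and kept most of their order. In control the genes kept ran from 2.13 FPKM (CENPI) to 306 FPKM (ZWINT), with a median of 24.2 FPKM, and in FZR1 ko from 3.01 FPKM (CENPE) to 217 FPKM (ZWINT), with a median of 21.5 FPKM. The summed FPKM was 1256 in control and 1090 in FZR1 ko. ZWINT alone made up much of that difference, since the sums without it were 950.1 and 873.5 FPKM. Spearman's rho between the libraries over all 34 genes was 0.88, beside 0.93 over all genes kept, and is given as a description since both libraries come from one labelled line.

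**Figure D1:**
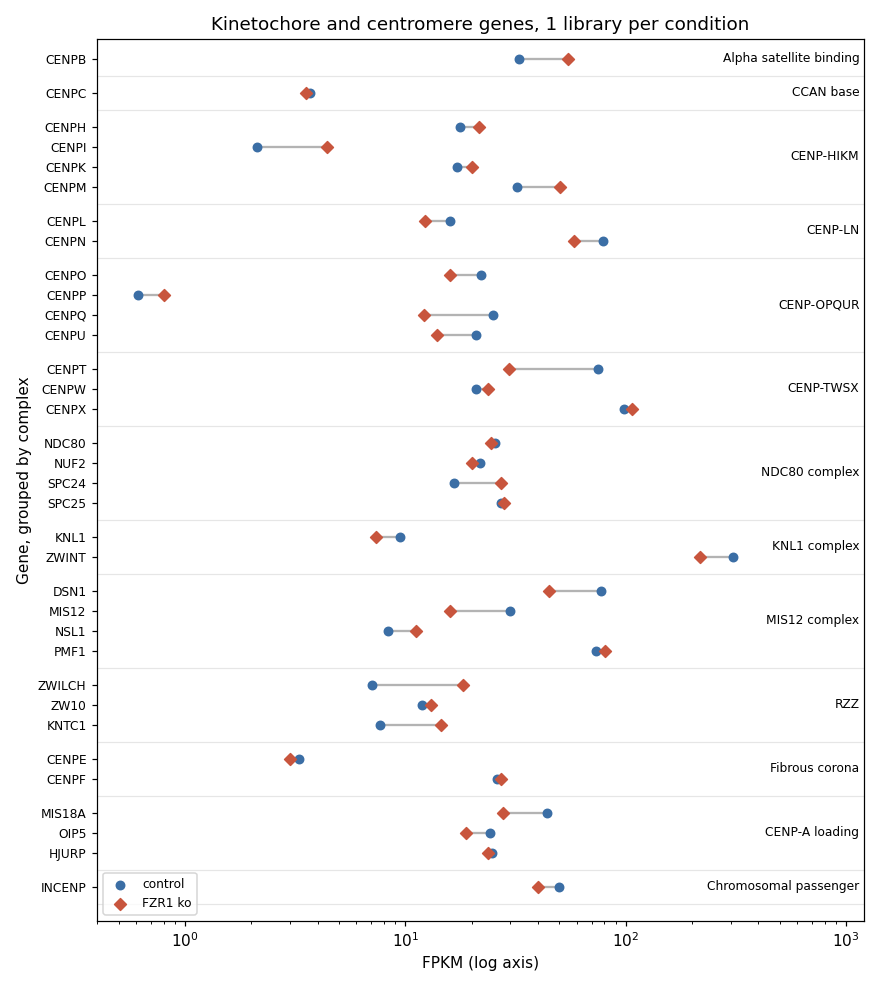
FPKM (log axis) of each of the 34 genes in the control library (circles) and the FZR1 ko library (diamonds), grouped by complex, with 1 library per condition and no error bars. ZWINT had the highest level in both libraries, and the longest lines are those of ZWILCH, from 7.03 to 18.3 FPKM, and CENPT, from 74.7 to 29.5 FPKM.

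At the level of the complexes the genes split. Of the 10 complexes with more than 1 gene here, 5 had all their genes on the same side, and 6 did over the genes kept, since CENP-OPQUR joins them without CENPP. The CENP-HIKM and RZZ genes were all higher in FZR1 ko, and the CENP-LN, KNL1 complex and CENP-A loading genes were all lower. In the loading genes this rests on HJURP, whose ratio of -0.05 turned to 0.13 when the median of protein-coding genes of like genomic span was subtracted. CENPF (0.06) then turned to -0.16, which put both corona genes on the lower side. The groups are small, so such agreement describes these libraries only.

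CENPB, which binds the CENP-B box of alpha satellite DNA, had 32.8 FPKM in control against 54.9 FPKM in FZR1 ko (log2 ratio 0.73). CENPC, the scaffold that joins CENP-A nucleosomes to the outer kinetochore, had 3.69 and 3.56 FPKM (-0.04). The mRNA of CENPB was thus higher in FZR1 ko while that of CENPC differed little.

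The CENP-HIKM subcomplex lies next to CENP-C and links the CCAN groups. Its 4 genes were higher in FZR1 ko, with a median log2 ratio of 0.45. CENPI had 2.13 FPKM in control against 4.41 FPKM in FZR1 ko (0.79), a ratio of 2.07 without the pseudocount. CENPM, a small GTPase-like protein, had 31.99 and 50.6 FPKM (0.65). CENPH, at 17.8 and 21.5 FPKM (0.26), and CENPK, at 17.2 and 20.0 FPKM (0.21), differed less. Their levels ran in the same order in both libraries, with CENPM highest and CENPI lowest.

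The CENP-LN dimer reads the CENP-A nucleosome through CENP-N. Both of its genes were lower in FZR1 ko by similar amounts. CENPN had 78.7 FPKM in control against 58.2 FPKM in FZR1 ko (log2 ratio -0.43), and CENPL had 16 and 12.3 FPKM (-0.35). CENPN stood at 4.92 times CENPL in control and 4.73 times in FZR1 ko, so their proportion hardly moved.

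The CENP-OPQUR group contains microtubule and CENP-E contacts of the inner kinetochore. Its 3 genes kept among the 34 were lower in FZR1 ko, with a median log2 ratio of -0.56. The CENP-R gene ITGB3BP, which is not among the 34, had 17.05 FPKM in control against 18.2 FPKM in FZR1 ko (0.09). CENPQ had 25.1 FPKM in control against 12.2 FPKM in FZR1 ko (-0.98). It is the gene just inside the 2-fold line on the scale used, and its ratio without the pseudocount was 2.06. CENPU, a docking protein for the mitotic kinase PLK1, had 20.9 and 13.9 FPKM (-0.56), and CENPO had 22.2 and 15.98 FPKM (-0.45). CENPP was near the limit of the table at 0.61 and 0.80 FPKM and is not counted among the genes kept. Exons of CENPO overlap ADCY3 on the other strand over 36.2% of the transcript and those of CENPU overlap PRIMPOL over 20.9%, and the sources used here do not say whether reads were counted by strand. In all, exons of 10 of the 34 genes overlapped another annotated gene.

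CENP-T, CENP-W, CENP-S and CENP-X are histone fold proteins that form a DNA binding particle, and CENP-T carries a second path to the NDC80 complex. CENPT was the gene with the lowest ratio, at 74.7 FPKM in control against 29.5 FPKM in FZR1 ko (log2 ratio -1.31), and 3.02% of all genes kept had a lower ratio. Its partners did not follow it. CENPW had 20.9 and 23.7 FPKM (0.17), and CENPX, which also serves in the Fanconi anemia pathway, had 98.2 and 106 FPKM (0.11). CENPT therefore stood at 3.57 times CENPW in control and 1.24 times in FZR1 ko. CENPT lies on chromosome 16 of hg38, minus strand, from 67828157 to 67847693, with 16 exons. Its exons overlap TSNAXIP1 over 9.69% of the transcript (0.16 and 0.26 FPKM) and NUTF2 over 6.43% (49.7 and 46.0 FPKM), both on the other strand.

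The NDC80 complex is the rod that grips microtubules, with NDC80 and NUF2 at the outer end and SPC24 and SPC25 at the inner end. NDC80 had 25.6 FPKM in control against 24.4 FPKM in FZR1 ko (log2 ratio -0.07), and NUF2 had 21.9 and 20.1 FPKM (-0.11). SPC25 had 27.3 and 28.0 FPKM (0.04). SPC24 was the exception, at 16.6 and 27.3 FPKM (0.68). The 4 genes lay within 1.64 times of each other in control and within 1.39 times in FZR1 ko, the narrowest range of any complex of 4 genes here, and SPC24 moved from the lowest of them to within the range of the others.

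KNL1 is the platform on which checkpoint kinases dock, and ZWINT binds it and brings in the RZZ complex. Both were lower in FZR1 ko. ZWINT had 306 FPKM in control against 217 FPKM in FZR1 ko (log2 ratio -0.50), and KNL1 had 9.44 and 7.40 FPKM (-0.31). ZWINT mRNA exceeded KNL1 mRNA by 32.4 times in control and 29.3 times in FZR1 ko.

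The MIS12 complex joins the inner to the outer kinetochore, and its 4 genes divided evenly. MIS12 had 29.9 FPKM in control against 15.9 FPKM in FZR1 ko (log2 ratio -0.87), and DSN1, the subunit through which Aurora B regulates binding to CENP-C, had 77.1 and 44.7 FPKM (-0.77). NSL1 had 8.38 and 11.2 FPKM (0.38), and PMF1 had 73.1 and 80.7 FPKM (0.14). The proportion of DSN1 to NSL1 was 9.20 in control and 4.0 in FZR1 ko. PMF1 shares 53.7% of its transcript with the readthrough gene PMF1-BGLAP (5.94 and 4.46 FPKM), so its reads are uncertain.

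The RZZ complex of ROD (the product of KNTC1), ZW10 and ZWILCH brings dynein and the checkpoint proteins MAD1 and MAD2 to unattached kinetochores. All 3 genes were higher in FZR1 ko, and their summed FPKM went from 26.5 to 45.9. ZWILCH had 7.03 FPKM in control against 18.3 FPKM in FZR1 ko (log2 ratio 1.27), the highest ratio among the 34 genes, and 96.7% of all genes kept had a lower one. With a pseudocount of 5 FPKM its log2 ratio was 0.95, under the 2-fold line. KNTC1 had 7.66 and 14.6 FPKM (0.85), and ZW10, which also works in membrane traffic, had 11.9 and 13.0 FPKM (0.13). ZW10 was the most abundant of the 3 in control and the least abundant in FZR1 ko. ZWILCH lies on chromosome 15 of hg38, plus strand, from 66505326 to 66550130, with 19 exons. Its exons overlap LCTL over 8.87% of the transcript (0.79 and 0.93 FPKM) and the very abundant RPL4 over 1.84% (791 and 839 FPKM, log2 ratio 0.08), both on the other strand.

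CENPE, a kinesin that moves chromosomes to the spindle equator, had 3.29 FPKM in control against 3.01 FPKM in FZR1 ko (log2 ratio -0.10). CENPF, a large corona protein that builds up in G2, had 26 and 27.1 FPKM (0.06). Neither differed by more than 0.10 on the log2 scale.

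New CENP-A is loaded after mitosis by its chaperone HJURP, with MIS18A and OIP5 (also called MIS18B) marking the centromere for it. MIS18A had 43.8 FPKM in control against 27.8 FPKM in FZR1 ko (log2 ratio -0.64). OIP5 had 24.2 and 18.9 FPKM (-0.34), and HJURP had 24.7 and 23.8 FPKM (-0.05). The antisense gene OIP5-AS1 covers 63.2% of the OIP5 transcript and was itself lower in FZR1 ko, at 42.8 and 26.2 FPKM (-0.68), so reads of OIP5 and its antisense gene cannot be told apart if strand was not used. INCENP, the scaffold of the chromosomal passenger complex, had 50 and 40.2 FPKM (-0.31).

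**Figure D2:**
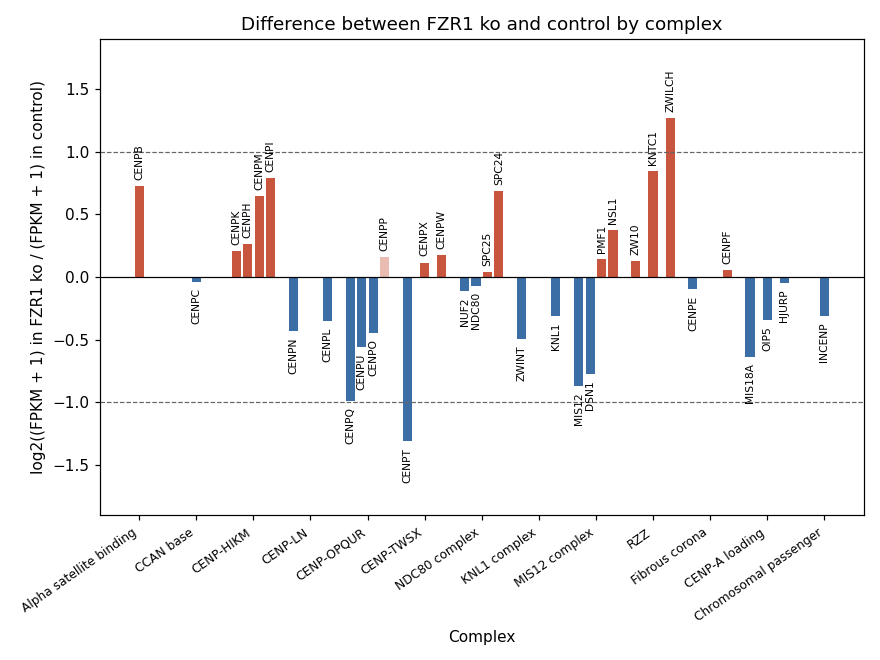
Log2 ratio of FPKM + 1 in FZR1 ko over control for each of the 34 genes, grouped by complex, with dashed lines at a 2-fold difference and 1 library per condition. CENPT (-1.31) and ZWILCH (1.27) lie beyond the lines, CENPQ (-0.98) lies just inside, and CENPP is drawn pale because it was below 1 FPKM in both libraries.

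Other genes that work at the kinetochore were described from 4 lists of 30 genes in all. Their median log2 ratio was 0.000 (15 higher in FZR1 ko and 15 higher in control), and 3 of the 30 were at least 2-fold different, against 13.5% of all genes kept. The 5 centromere and loading partners had a median of -0.09 with none past 2-fold. In that list CENPA, the centromeric histone H3 variant, had 20.3 FPKM in control against 13.99 FPKM in FZR1 ko (-0.51). The 8 spindle checkpoint genes had a median of 0.12, and 1 was past 2-fold. This was MAD2L1BP, whose product p31comet helps to switch the checkpoint off, at 71.2 FPKM in control against 26.8 FPKM in FZR1 ko (-1.38).

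The 7 genes of the chromosomal passenger and cohesion protection list had the lowest median, -0.52. In it 6 of 7 were lower in FZR1 ko, beside 6812 of the 13554 genes kept. HASPIN, a kinase that marks histone H3 for the passenger complex, was past 2-fold at 22.6 and 9.91 FPKM (log2 ratio -1.11). The 10 microtubule coupling genes had a median of 0.14, with CLASP2, a microtubule plus end protein, past 2-fold at 2.55 and 6.29 FPKM (1.04). Among all genes kept 6.72% were at least 2-fold lower and 6.79% higher. The list medians so differed in sign, and each list had genes on both sides of 0.

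Genes of the cell cycle phases around mitosis were set beside them. The 28 other G2/M genes had a median log2 ratio of -0.12, with 12 higher and 16 lower in FZR1 ko, where 49.6% of all genes kept were higher. None was past 2-fold, against 13.5% of all genes kept. The extremes were UBE2C, the ubiquitin conjugating enzyme of the anaphase promoting complex, at 286 FPKM in control against 155 FPKM in FZR1 ko (-0.88), and ANLN, a cytokinesis scaffold, at 37.2 and 63.1 FPKM (0.74). The 20 G1/S genes had a median of -0.20, with 7 higher and 13 lower, and 3 were at least 2-fold lower (against 6.72% of genes kept). They were CCNE2 (77.3 and 24.3 FPKM, -1.63) and CCNE1 (56.7 and 22.9 FPKM, -1.27), which encode E cyclins, and E2F1 (83.4 and 38.8 FPKM, -1.09), a transcription factor of the G1 to S transition.

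**Figure D3:**
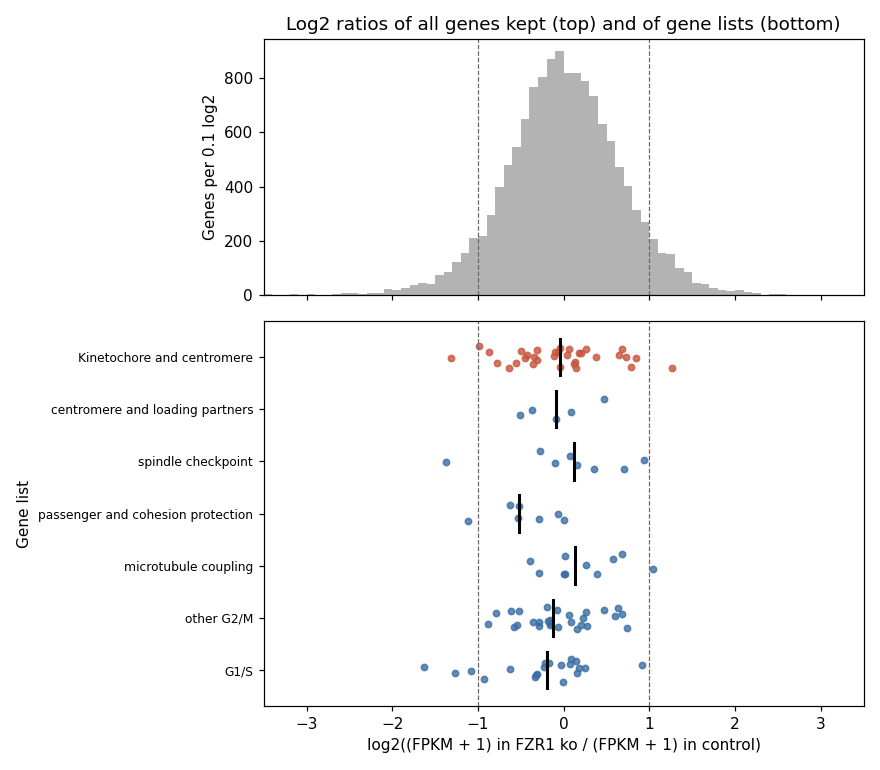
The top panel counts all 13554 genes kept per 0.1 of log2 ratio (FZR1 ko over control, FPKM + 1), and the bottom panel plots each gene of 7 lists on the same axis, spread vertically at random, with black bars at the medians and dashed lines at a 2-fold difference. The kinetochore and centromere genes centre on -0.049 and span -1.31 to 1.27, inside the main body of all genes.

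Genes with the shared promoter letters were then compared within the group. The 13 genes kept with CHR letters had a median log2 ratio of -0.07 (4 higher and 9 lower in FZR1 ko), and the 14 with a window but no CHR letters had one of 0.13 (8 higher and 6 lower). Both of the extremes, CENPT and ZWILCH, lacked the CHR letters in their windows. The CHR genes ran from -0.50 (ZWINT) to 0.17 (CENPW). The genes of the group with CCAAT letters numbered 18 and had a median of -0.001, and the 9 without had one of -0.10. The 3 with E2F-like letters, CENPU, MIS12 and OIP5, were all lower in FZR1 ko, with a median of -0.56, and the 24 without had one of -0.001 (12 higher and 12 lower).

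Genomic span, the distance from the start to the end of the main transcript with introns, moved with the log2 ratio across the whole table. Over 11447 protein-coding genes kept, Spearman's rho of span and log2 ratio was 0.45, a description across genes that share both libraries. Protein-coding genes with a span under 25 kb had a median log2 ratio of -0.19 and those of 25 kb or more had one of 0.27. The cutoff was chosen after the values were seen. Among the kinetochore and centromere genes the relation was weaker, with a rho of 0.18 over 33 genes. The 15 genes under 25 kb had a median of -0.05 and the 18 at or above it one of -0.05. Of the 15 shorter genes, 7 (46.7%) had the higher FPKM in FZR1 ko, beside 36.1% of protein-coding genes of that span. Of the 18 longer genes, 8 (44.4%) had the higher FPKM in FZR1 ko, beside 67.4%.

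For a comparison with genes of like span, the protein-coding genes were divided by span into 10 bins of equal number. Of the 33 genes, 15 lay above the median of their bin and 18 below it (54.5%). The protein-coding genes lay 5720 on each side, a split fixed beforehand because the medians are their own. Long and short genes of the group lay on both sides. CENPE (92.5 kb), CENPC (76.7 kb) and KNL1 (70.1 kb) had log2 ratios of -0.10, -0.04 and -0.31, below the medians of their bins, which were 0.41, 0.41 and 0.22, while CENPI (67.9 kb) was above its bin by 0.57. Among short genes CENPB (2.89 kb), SPC24 (10.3 kb) and CENPM (8.42 kb) were above their bins by 0.93, 0.86 and 0.82, while MIS12 (4.25 kb), MIS18A (10.8 kb) and ZWINT (4.03 kb) were below theirs, at -0.67, -0.46 and -0.29 after subtraction. With the median of the bin subtracted, the group had a median of -0.12, and CENPT (-1.17) and ZWILCH (1.21) were again the 2 genes past 2-fold (6.06%), beside 8.19% of protein-coding genes on that scale. KNTC1 (99.1 kb) dropped from 0.85 to 0.44, so the median of the RZZ complex became 0.44, against 0.85 before. The part of span in the differences between the libraries was not tested.

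**Figure D4:**
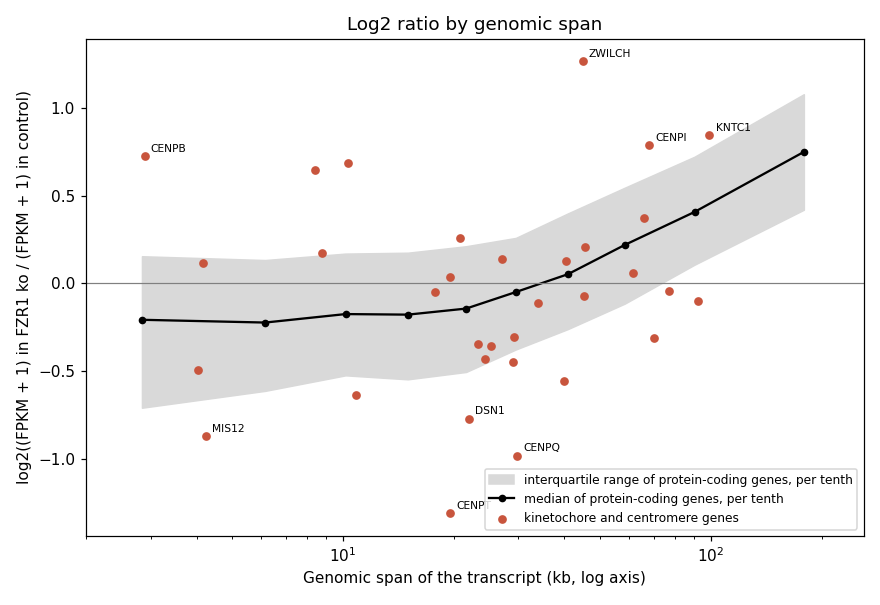
Log2 ratio of FPKM + 1 in FZR1 ko over control against genomic span (kb, log axis) for the 33 genes kept (points), with the median (line) and interquartile range (band) of protein-coding genes in 10 bins of span. The line runs from -0.21 in the shortest bin to 0.75 in the longest, while the points scatter on both sides of 0 across the range.

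The 4 lists of other kinetochore genes were also divided at 25 kb. Of their 15 genes under 25 kb, 1 (6.67%) had the higher FPKM in FZR1 ko and 14 had it in control, with a median of -0.29, beside 36.1% higher among protein-coding genes of that span. Of the 15 at or above 25 kb, 14 (93.3%) had the higher FPKM in FZR1 ko and 1 in control, with a median of 0.35, beside 67.4%. The difference from protein-coding genes was not tested. With the median of the bin subtracted, 14 of the 30 genes lay above their bins and 16 below, with a median of -0.04, and 1 was past 2-fold instead of 3. The other G2/M genes showed medians of -0.23 over 10 genes under 25 kb and 0.14 over 18 at or above it. In the G1/S genes the subtraction brought the median from -0.20 to -0.04, with 9 above and 11 below their bins, and 2 instead of 3 were at least 2-fold lower.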

How the data were processed

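Sequencing of total RNA used the BGISEQ-500 platform. The authors aligned reads to the transcriptome with Bowtie2 and quantified them with RSEM on the human hg38 reference, and deposited FPKM per Entrez gene ID to 2 decimals. The submitters' processing notes give Bowtie2 2.2.5, Trimmomatic 0.36 and HISAT2 2.1.0. The methods give another Bowtie2 version, and the annotation version and strand setting are not given in the sources used here. Of 24663 rows, 1630 had no value in either library. Of the 23033 others, 22925 matched a symbol of the RefSeq table (GRCh38.p14).

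FPKM was used as deposited, with a pseudocount of 1 FPKM and a minimum of 1 FPKM in at least 1 library. The computation was tested on simulated data. The methods state no test for these genes, and 1 library per condition allows none. Exons, spans and overlaps are those of the canonical transcript of each gene in GENCODE 44 (hg38). Scripts ran in Python 3.11.15 with scipy 1.17.1, pandas 2.3.3, numpy 2.4.6 and matplotlib 3.10.9.

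The members and lists were chosen with earlier results of these data known. All 34 genes are named, with FZR1, markers, overlapping genes, and the genes of each list past 2-fold or, if none, its extremes, except 1 gene that is not reported here. The promoters printed were chosen after the values were seen. Alternatives changed the pseudocount, filter, scaling, gene type and threshold.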

Additional observations from a re-analysis of the deposited data

How the results depend on the processing

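No paired analysis was possible because there was 1 library of each genotype, and for that reason no replicate could be left out. The 10 FPKM filter and the subtraction of the median of each span bin were chosen after seeing the data. A median counted as moved when it changed by over 0.1 (log2) and a count when it changed by over 1.5 times. The members' median ranged from -0.12 to -0.042, and CENPT (-1.34 to -1.17) and ZWILCH (0.95 to 1.37) kept their direction under every setting run.

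With a pseudocount of 0.1 FPKM, 2 of 33 members were at least 2-fold lower and 2 higher, as CENPQ (-1.04) and CENPI (1.02) passed too. Under it 1361 of the 13554 genes kept were lower and 1463 higher, and 1 checkpoint gene was higher. With 5 FPKM no member was 2-fold higher (0, ZWILCH at 0.95), and the medians were 0.31 for CENP-HIKM, -0.46 for CENP-OPQUR and 0.63 for RZZ. Of the 13554 genes kept, 270 were lower under that setting and 183 higher. In the passenger and microtubule lists 0 genes then passed.

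At a 1.5-fold threshold 5 members were lower and 6 higher, and 2391 and 2442 genes in all. The lists then gave 2 of 8 checkpoint genes higher, 2 of 7 passenger genes lower, 2 of 10 microtubule genes higher, 3 of 28 other G2/M genes lower (10.7%) and 4 higher (14.3%), and 5 of 20 G1/S genes lower and 1 higher, beside 17.6% lower and 18.0% higher of all genes. By construction a lower threshold or pseudocount lets more genes pass.

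Where a gene had to reach 10 FPKM somewhere, 467 genes were lower and 371 higher as fewer were compared, and 2 of 29 members (6.90%) were past 2-fold against 11.5% of all genes. The CENP-HIKM median was then 0.26, without CENPI, the centromere partners' -0.23 and the microtubule list's 0.014, with 0 genes past 2-fold. After subtraction of the median of each span bin, the medians were -0.20 for CENP-A loading, -0.25 for CENP-LN, 0.32 for CENP-TWSX, 0.44 for RZZ and -0.33 for the corona genes, while HJURP (0.13) and CENPF (-0.16) changed sign. Median centring, rescaling, protein-coding genes only, no filter and 1 FPKM in both libraries moved none of these by the rule above. All 33 members kept are protein-coding with at least 1 FPKM in both libraries, so those settings could not change them. The summed FPKM of the libraries (502589 in control and 500488 in FZR1 ko) left little to rescale. With 1 FPKM required in both libraries, 620 genes in all were lower and 644 higher, against 911 and 920 before. The depth is unknown, which limits what low values such as those of CENPP can show.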

Other observations

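Several of the kinetochore and centromere genes start close to a gene on the other strand. In GENCODE 44, 13 of them have a protein-coding neighbour of at least 1 FPKM that starts within 1000 bases upstream, or overlaps by up to 500 bases, and runs the other way. In 8 of the 13 pairs both genes had a log2 ratio of the same sign, and in 5 they were opposite. The 8 include CENPP, which was below 1 FPKM, with NOL8. The share over all such pairs of genes was not computed, so the count has no background. CENPQ (-0.98) starts 117 bases from MMUT, a mitochondrial mutase, which had 3.66 FPKM in control against 6.49 FPKM in FZR1 ko (0.68). KNTC1 (0.85) starts 313 bases from RSRC2, at 51.7 and 34.9 FPKM (-0.55). OIP5 (-0.34) starts 290 bases from NUSAP1, a spindle protein, at 72.1 and 55.9 FPKM (-0.36). ZWILCH (1.27) starts 471 bases from RPL4, whose ratio was 0.08. These pairs are described only, with no test.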
